A study of Mus musculus with 6 samples.

Results

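Cyclic nucleotide phosphodiesterases were measured in the mouse line Raw 264.7, which grew from a tumour and has features of monocytes and macrophages, with and without the cytokine IL-33. The 9 genes described are Pde7b, Pde7a, Pde4a, Pde4b, Pde4d, Pde8a, Pde1b, Pde2a and Pde3b, of 22180 genes measured. Each was read from a probe set that the platform annotation assigns to that gene symbol alone, and where a gene had several, from the one with the highest mean over all 6 arrays, which does not use the group labels. Pde7b itself was chosen by its measured change, because its result in the comparison of IL-33 with PBS was already known, and the other 8 were set beside it as further members of the family. Their values and p-values in that comparison therefore describe where each gene stands in the fit over all genes and are not independent evidence.

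The arrays labelled IL-33 (n = 3) came from cells starved and then kept in medium with 2% serum and IL-33 at 50 ng/ml. Those labelled PBS (n = 3) came from cells handled alike without IL-33. All cells had been grown in medium with 10% serum, and no source used here gives the length of treatment. Groups follow the sample titles, but the array names carried in the sample descriptions go against them, since "IL" stands in the names of the PBS samples and "P" in those of the IL-33 samples. Every direction below would turn if the titles were wrong. Whether the samples of a group were separate cultures is not stated, and p-values then measure only how far these samples spread, which may be technical. In RNA from a whole culture, a change in the number of expressing cells and a change in RNA per cell cannot be told apart.

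Cyclic AMP and cyclic GMP are second messengers made by adenylyl and guanylyl cyclases, and phosphodiesterases are the enzymes that end the signal by hydrolysing them. In monocytes and macrophages cyclic AMP restrains inflammatory output, and inhibitors of the PDE4 enzymes are used as anti-inflammatory drugs. PDE4, PDE7 and PDE8 enzymes act on cyclic AMP, whereas PDE1, PDE2 and PDE3 enzymes accept both messengers.

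Of the 9 phosphodiesterase genes, Pde7b was higher in the IL-33 arrays and the other 8 did not pass. Pde7b (Entrez gene 29863) encodes a cyclic AMP-specific enzyme with high affinity for its substrate. Its log2 expression value was 7.43, 7.49 and 7.47 on IL-33 arrays 1 to 3, against 6.67, 6.73 and 6.72 on PBS arrays 1 to 3. The groups lay far apart, with the lowest IL-33 value 0.70 above the highest PBS value, while the values of the IL-33 arrays spanned 0.05 and those of the PBS arrays 0.07. The means were 7.46 ± 0.03 in the IL-33 arrays and 6.71 ± 0.04 in the PBS arrays (log2, SD, n = 3 each). The log2 difference, IL-33 minus PBS, was 0.76 ± 0.05 (SE), a 1.69-fold rise, with a 95% interval of 0.64 to 0.87. In the limma fit over all 22180 genes its adjusted p was 0.00387 (Benjamini-Hochberg), its p ranked 6 from the smallest, and 50 genes had a larger absolute difference, 21 of them higher in the IL-33 arrays. It passed at an adjusted p under 0.05 in that fit and under all 15 alternative settings, those without each of the 6 arrays included.

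**Figure D1:**
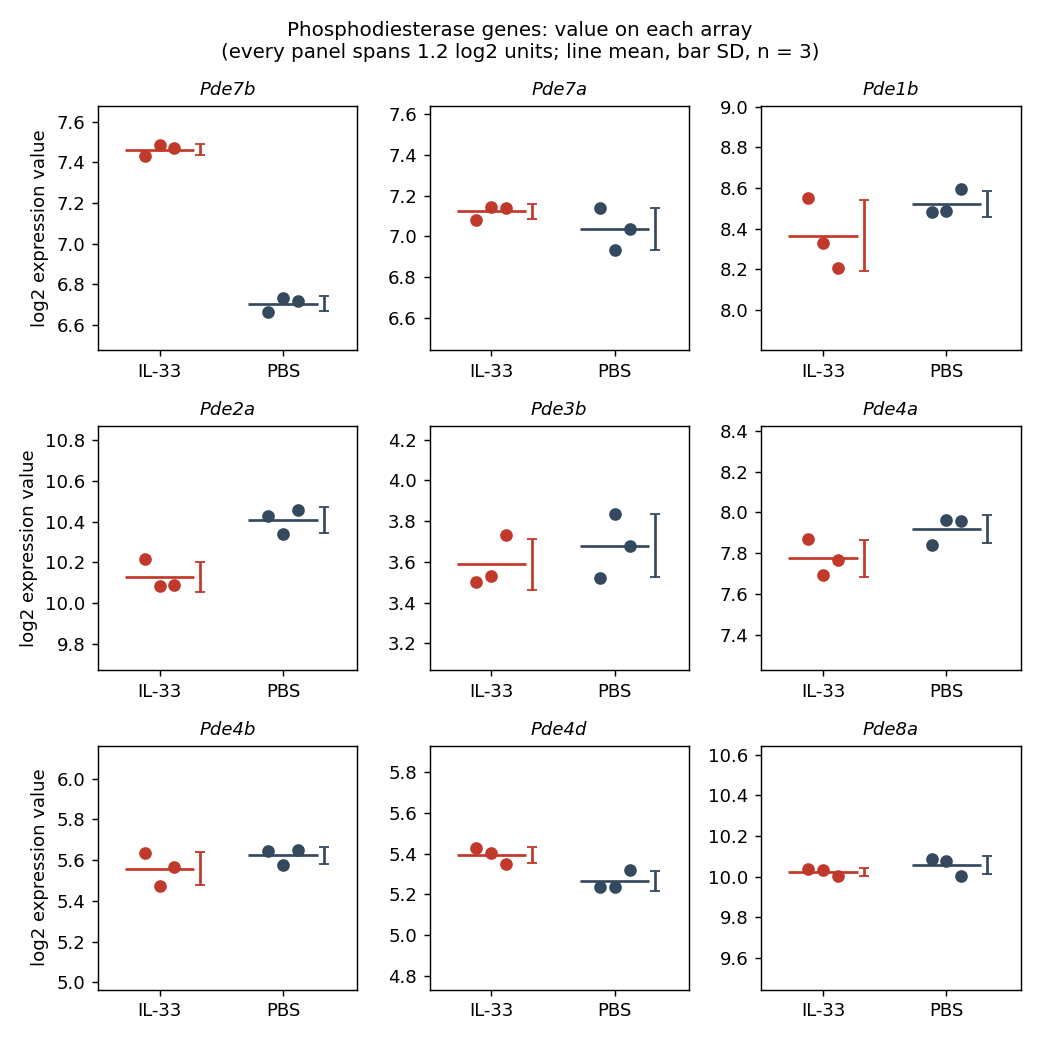
Log2 expression value (vertical axis) of the 9 phosphodiesterase genes on each IL-33 array (red) and each PBS array (dark blue), with the group mean as a line and its SD as a bar (n = 3 each). All panels have the same span, and the Pde7b panel shows IL-33 values of 7.43 to 7.49 above PBS values of 6.67 to 6.73.

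Pde7a encodes the other PDE7 enzyme, also specific for cyclic AMP. Its log2 value was 7.08, 7.15 and 7.14 on the IL-33 arrays, against 7.14, 6.93 and 7.03 on the PBS arrays. The groups overlapped, with the lowest IL-33 value under the highest PBS value. The log2 difference was 0.09 ± 0.07 (SE), with a 95% interval of -0.07 to 0.24 and an adjusted p of 0.639 (limma). A dimmer probe set of Pde7a averaged 4.90 in the IL-33 arrays and 5.01 in the PBS arrays, a difference of -0.11 ± 0.10 (SE), so the sign of the Pde7a difference depended on the probe set. The difference of Pde7b exceeded that of Pde7a by 0.67 log2 units, given as a description with no test, since Pde7b was chosen for its difference.

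For the PDE4 enzymes, the drug targets named above, RNA of Pde4a, Pde4b and Pde4d is described. Pde4a had log2 values of 7.87, 7.69 and 7.77 on the IL-33 arrays, against 7.84, 7.96 and 7.96 on the PBS arrays. IL-33 array 1 lay above the lowest PBS value, so the groups overlapped, and the log2 difference was -0.14 ± 0.07 (SE), with a 95% interval of -0.30 to 0.01. Pde4b, an enzyme needed for full production of TNF by mouse monocytes and macrophages exposed to endotoxin, had values of 5.63, 5.47 and 5.57 on the IL-33 arrays, against 5.64, 5.58 and 5.65 on the PBS arrays. Its groups overlapped, and the log2 difference was -0.07 ± 0.06 (SE), with an interval of -0.21 to 0.08. Pde4d had values of 5.43, 5.40 and 5.35 on the IL-33 arrays, against 5.24, 5.24 and 5.32 on the PBS arrays. Its groups did not overlap, though only 0.03 separated them, and the difference of 0.13 ± 0.05 (log2, SE) had an interval of 0.01 to 0.25. Adjusted p was 0.421 for Pde4a, 0.709 for Pde4b and 0.358 for Pde4d (limma), so none of these genes passed. Pde4c, named after its values were seen, differed by -0.10 (log2) with an adjusted p of 0.647 (limma).

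Pde8a encodes a cyclic AMP-specific enzyme that common phosphodiesterase inhibitors do not block well. It had log2 values of 10.04, 10.03 and 10.00 on the IL-33 arrays, against 10.09, 10.08 and 10.00 on the PBS arrays. These values nearly coincided, and the log2 difference was -0.03 ± 0.05 (SE), with a 95% interval of -0.15 to 0.09 and an adjusted p of 0.839 (limma).

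Of the enzymes that accept both messengers, Pde2a stood furthest from no difference. It encodes the enzyme that cyclic GMP stimulates to degrade cyclic AMP. Its log2 value was 10.22, 10.08 and 10.09 on the IL-33 arrays, against 10.43, 10.34 and 10.46 on the PBS arrays. The groups did not overlap and were 0.12 apart. The log2 difference was -0.28 ± 0.06 (SE), with a 95% interval of -0.42 to -0.13, an unadjusted p of 0.00278 and an adjusted p of 0.120 (limma), so Pde2a did not pass. It did pass when the dimmer genes, with a mean under the median of all genes, were left out and with a trended and robust prior variance, with adjusted p of 0.0285 and 0.00457 (limma) in a range of 0.00457 to 0.349 over the alternatives.

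Pde1b, whose enzyme is switched on by calcium and calmodulin, had log2 values of 8.55, 8.33 and 8.21 on the IL-33 arrays, against 8.48, 8.49 and 8.59 on the PBS arrays. IL-33 array 1 lay among the PBS values and well above the other two IL-33 arrays. The log2 difference was -0.16 ± 0.09 (SE), with a 95% interval of -0.38 to 0.06, and it was -0.25 without IL-33 replicate 1 and -0.08 without IL-33 replicate 3. Pde3b, whose enzyme cyclic GMP inhibits and insulin activates, had values of 3.50, 3.53 and 3.73 on the IL-33 arrays, against 3.52, 3.83 and 3.68 on the PBS arrays. Its groups overlapped, and its log2 difference was -0.09 ± 0.10 (SE). Pde3b was among the lowest 20% of genes by mean value, where the authors' normalization compresses differences. The part of such compression in the Pde3b difference was not tested. Adjusted p was 0.531 for Pde1b and 0.755 for Pde3b (limma).

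**Figure D2:**
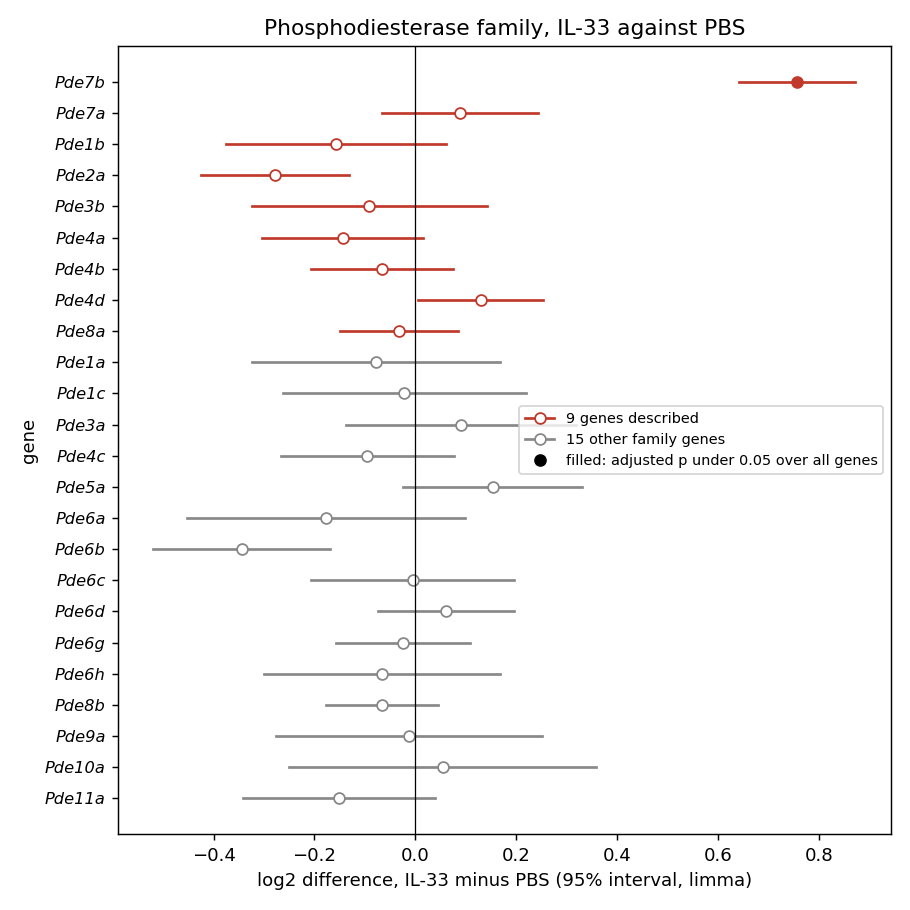
Log2 difference, IL-33 minus PBS (horizontal axis), with its 95% interval from limma for 24 genes named for phosphodiesterases or their subunits. The 9 described (red) stand above the 15 others (grey). Only the Pde7b point, at 0.76, is filled for an adjusted p under 0.05, and the other points lie between -0.34 and 0.15.

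Counted together, 1 of the 9 genes rose, none fell and 8 did not pass, where 0.591% of all genes passed in either direction, 0.275% higher and 0.316% lower. These shares are given for scale, since Pde7b was picked with its result known. At an unadjusted p under 0.05 there were 3 of the 9, against 13.2% of all genes. The groups did not overlap for Pde7b, Pde4d and Pde2a, 3 of the 9, against 20.3% of all genes. Of these 3, the first 2 were higher and Pde2a lower, against 10.3% and 10.1% of all genes. Differences were below 0 for 6 of the 9, against 52.1% of all genes, and the median log2 difference was -0.07, beside -0.01 over all genes. The 8 genes other than Pde7b ranged from -0.28 to 0.13.

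The 15 remaining genes were those named for other cyclic nucleotide phosphodiesterases or their subunits. They cover PDE6 subunits and the PDE5, PDE9, PDE10 and PDE11 enzymes among others. None of the 15 passed, against 0.591% of all genes, and 1 had an unadjusted p under 0.05 (limma), against 13.2%. That gene was Pde6b, a catalytic subunit of the rod photoreceptor enzyme, with log2 means of 5.22 ± 0.03 in the IL-33 arrays and 5.57 ± 0.13 in the PBS arrays (SD, n = 3 each). Its difference was -0.34 ± 0.07 (SE) with an adjusted p of 0.115 (limma). Pde5a, a cyclic GMP-specific enzyme and the target of sildenafil, had a difference of 0.15 ± 0.07 (SE) with an adjusted p of 0.443 (limma). The other differences lay within 0.2 of 0, and the median was -0.02.

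The rest of the cyclic nucleotide pathway was examined through gene lists, whose counts stand against 0.591% of all genes called and 13.2% with an unadjusted p under 0.05. Of 9 adenylyl cyclase genes, which make cyclic AMP, none passed and 1 had an unadjusted p under 0.05 (limma). It was Adcy10, the soluble, bicarbonate-stimulated cyclase, with a difference on the log2 scale of -0.30 ± 0.09 (SE), values of 3.39, 3.32 and 3.48 on the IL-33 arrays, and values of 3.87, 3.62 and 3.59 on the PBS arrays. These values lie near the bottom of the scale. Adcy2 differed by 0.10 ± 0.06 (SE), and adjusted p was 0.215 for Adcy10 and 0.515 for Adcy2 (limma). Of 8 genes for guanylyl cyclases and cyclic GMP-dependent kinases none passed, and none had an unadjusted p under 0.05 (limma). The kinases Prkg1 and Prkg2 had differences of -0.23 and -0.21 and adjusted p values of 0.420 and 0.439 (limma). Without 1 array these differences ran from -0.34 to -0.15 for Prkg1 and from -0.27 to -0.10 for Prkg2. List medians were 0.01 for adenylyl cyclases and -0.05 for the cyclic GMP genes.

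Receptors and G proteins that set cyclic AMP production gave 13 measured genes, of which none passed, against 0.591% of all genes. An unadjusted p under 0.05 (limma) was reached by 2, against 13.2% of all genes. Gpr65, an acid-sensing receptor coupled to cyclic AMP production, came closest, with log2 values of 9.28, 9.36 and 9.43 on the IL-33 arrays, against 8.91, 9.07 and 8.96 on the PBS arrays. The IL-33 values were all above the PBS values. The difference was 0.38 ± 0.07 (SE) with an adjusted p of 0.0689 (limma), and Gpr65 passed in 3 of the 15 alternatives, over which the adjusted p ranged from 0.00182 to 0.254. Calcrl, the calcitonin receptor-like receptor, differed by 0.14 ± 0.05 (SE) with an adjusted p of 0.323 (limma). The median of the list was 0.04.

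Downstream of cyclic AMP, 9 genes were measured for protein kinase A subunits, their inhibitors and cyclic AMP-gated exchange factors. None of the 9 passed or had an unadjusted p under 0.05 (limma), against 0.591% and 13.2% of all genes. Differences of the 9 ran from -0.16 for the exchange factor Rapgef3 to 0.11 for the kinase inhibitor Pkib, with adjusted p of 0.526 and 0.454 (limma). With probe sets averaged, Rapgef3 differed by -0.08 with an adjusted p of 0.794 (limma). Of 16 genes for A-kinase anchoring proteins and phosphodiesterase partners none passed, against 0.591% of all genes. An unadjusted p under 0.05 (limma) was reached by 4, against 13.2% of all genes. Arrb1, a beta-arrestin that brings PDE4 enzymes to activated receptors, had values of 10.40, 10.38 and 10.36 on the IL-33 arrays, against 10.63, 10.56 and 10.66 on the PBS arrays. The groups were apart, and the log2 difference was -0.24 ± 0.05 (SE) with an adjusted p of 0.118 (limma). Akap13, an anchoring protein for protein kinase A, differed by -0.13 ± 0.05 (SE) with an adjusted p of 0.315 (limma). The rest of the 4 were Akap2 and Akap7, named after their values were seen. They differed by -0.16 and 0.20 (log2) with adjusted p of 0.347 and 0.328 (limma), so the 4 went both ways. The medians of these lists were 0.02 and 0.04.

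Of 10 genes of the CREB family, its coactivators and the salt-inducible kinases none passed, against 0.591% of all genes. An unadjusted p under 0.05 (limma) was reached by 2, against 13.2% of all genes. Sik2, a kinase that protein kinase A holds in check, had values of 9.40, 9.24 and 9.37 on the IL-33 arrays, against 9.67, 9.56 and 9.69 on the PBS arrays. All IL-33 values were below all PBS values, and the log2 difference was -0.30 ± 0.07 (SE) with an adjusted p of 0.118 (limma). Ep300, a histone acetyltransferase that CREB recruits, differed by -0.19 ± 0.05 (SE) with an adjusted p of 0.170 (limma). Arrb1, Sik2 and Ep300 passed, of the 15 alternatives, only without the genes dimmer than the median and with the trended and robust prior variance.

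Genes listed here as induced by cyclic AMP through CREB, a grouping not checked in these cells, gave 17 measured members. Of these, 1 fell, 16 did not pass and none rose, where 0.591% of all genes passed. Their median log2 difference was -0.09. Dusp1, a MAP kinase phosphatase, had values of 10.65, 10.47 and 10.39 on the IL-33 arrays, against 11.22, 11.10 and 11.14 on the PBS arrays. Its groups were well apart, and the log2 difference of -0.65 ± 0.08 (SE) had an adjusted p of 0.0246 (limma). The call was lost in 7 of the 15 alternatives, among them every fit without 1 array other than IL-33 replicate 1. At an unadjusted p under 0.05 there were 5 of the 17, against 13.2% of all genes, and they went both ways. Besides Dusp1 they were Egr1 and Sgk1, with differences of 0.25 and 0.35, and Thbs1 and Socs3, with differences of -0.23 and -0.16 (log2), all 4 named after their values were seen and with adjusted p from 0.101 to 0.340 (limma).

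**Figure D3:**
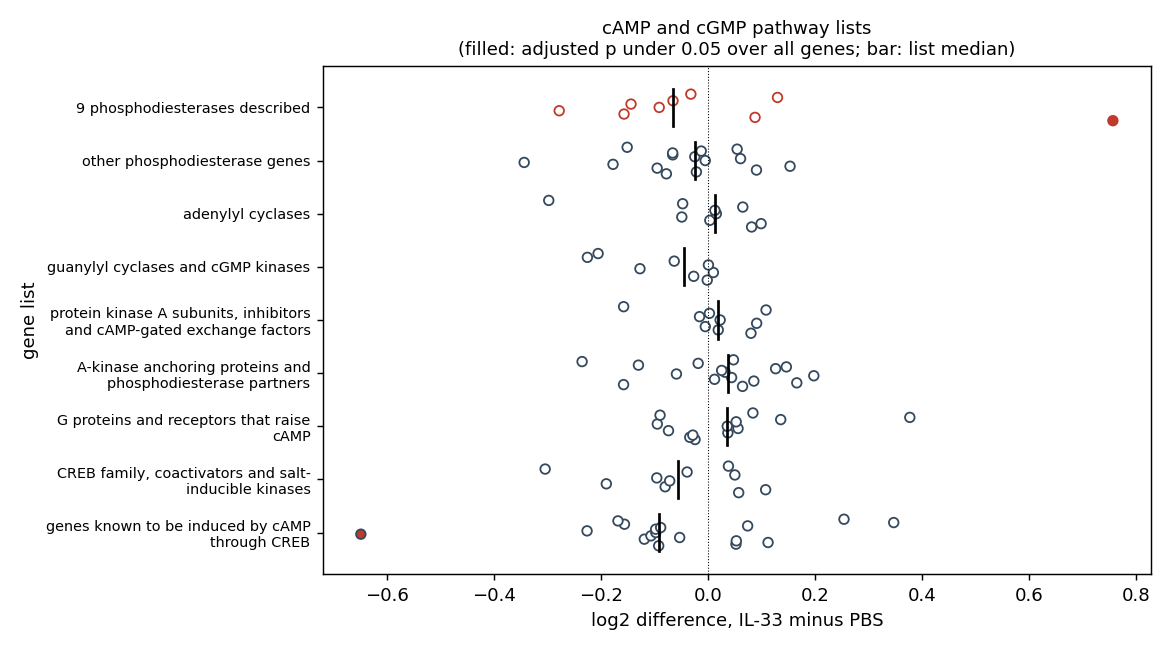
Log2 difference, IL-33 minus PBS (horizontal axis), of each measured gene in the 9 phosphodiesterases described and in 8 pathway lists, with the list median as a bar and filled points for an adjusted p under 0.05 over all genes. Filled points are Pde7b at 0.76 and Dusp1 at -0.65, and every list median lies between -0.09 and 0.04.

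The 5 genes whose profile over the 6 arrays came nearest to that of Pde7b, by root mean square distance after subtracting each gene's own mean, were Glipr2, Rgs16, Slfn1, Ifi205 and Hdc. Their distances were 0.055, 0.064, 0.079, 0.085 and 0.086 log2 units, in that order. Among the others of the 9 phosphodiesterases described, the nearest was Pde4d at 0.317 and the farthest Pde2a at 0.523. Distances of the 15 further family genes are not given. The 5 genes share the arrays and the step between the groups with Pde7b, so the likeness is a description over 6 points. Glipr2, a Golgi membrane protein of the pathogenesis-related family, had values of 7.17, 7.21 and 7.24 on the IL-33 arrays, against 6.45, 6.45 and 6.60 on the PBS arrays. Rgs16, which shortens signalling by Gi and Gq proteins, had values of 9.69, 9.73 and 9.71 on the IL-33 arrays, against 8.87, 9.09 and 9.10 on the PBS arrays. Both genes stood higher on all IL-33 arrays, with log2 differences of 0.71 ± 0.06 and 0.69 ± 0.07 (SE).

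Slfn1, a Schlafen protein linked to T cell quiescence, differed by 0.80 ± 0.07 (log2, SE). Ifi205, a member of the interferon-inducible p200 family, differed by 0.82 ± 0.08 (log2, SE), and Hdc, the enzyme that makes histamine, by 0.77 ± 0.08 (log2, SE). Adjusted p for the 5 genes lay between 0.0100 and 0.0183 (limma). PBS standard deviations were 0.09, 0.13, 0.08, 0.10 and 0.14 (log2, n = 3) in the order above, compared with 0.04 for Pde7b. All 5 lost their call in some alternatives, Glipr2 and Slfn1 in 5 of the 15, Rgs16 and Ifi205 in 6 and Hdc in 7, where Pde7b kept its call in all 15. Pde7b was picked with its result known and the 5 for nearness to its profile. These comparisons of spread and calls are therefore descriptions.

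**Figure D4:**
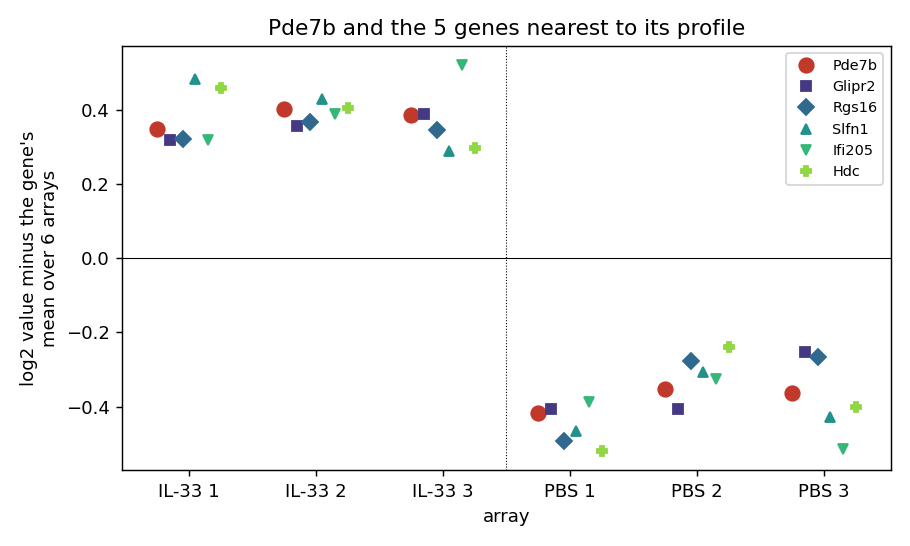
Log2 value minus the gene's own mean over 6 arrays (vertical axis) on each array (horizontal axis, IL-33 arrays left of PBS arrays) for Pde7b and the 5 genes nearest to its profile. All points of the IL-33 arrays lie above 0 and all points of the PBS arrays below 0, and root mean square distances from Pde7b run from 0.055 to 0.086.

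Because these genes stand together on the arrays, the sequence before their RefSeq start sites (GRCm38.p6) is shown for Pde7b and for the 2 of the 5 that held a searched motif. Pde7b lies on chromosome 10 from 20397052 to 20725078, on the minus strand. The window given for it, chr10:20548329-20548578, ends at a start site 176750 bases inside that span, so it belongs to a transcript that starts within the gene, and the files do not tell which transcripts the probe set reads. The Slfn1 window is chr11:83116570-83116819 on the plus strand and the Ifi205 window is chr1:174031756-174032005 on the minus strand. Each shows the 250 bases before the start site, 5′ to 3′ on the gene's strand, with matches to any searched motif in capitals.
Pde7b: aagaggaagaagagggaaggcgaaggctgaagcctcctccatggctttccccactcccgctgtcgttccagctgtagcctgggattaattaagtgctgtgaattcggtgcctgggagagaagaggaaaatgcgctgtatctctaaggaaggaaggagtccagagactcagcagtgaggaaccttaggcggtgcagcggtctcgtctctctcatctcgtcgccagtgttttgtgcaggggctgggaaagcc
Slfn1: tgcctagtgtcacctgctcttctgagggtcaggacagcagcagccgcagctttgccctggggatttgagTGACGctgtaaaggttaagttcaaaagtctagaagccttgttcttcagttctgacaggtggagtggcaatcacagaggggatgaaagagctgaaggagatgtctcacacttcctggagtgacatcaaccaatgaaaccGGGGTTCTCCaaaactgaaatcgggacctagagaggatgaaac
Ifi205: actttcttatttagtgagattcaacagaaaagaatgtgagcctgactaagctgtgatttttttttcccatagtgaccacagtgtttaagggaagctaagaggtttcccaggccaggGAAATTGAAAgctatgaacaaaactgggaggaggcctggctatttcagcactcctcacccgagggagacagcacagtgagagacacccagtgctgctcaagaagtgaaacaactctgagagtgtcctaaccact

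The 7 motifs, each searched on both strands, were the cyclic AMP response element (TGACGTCA), its first part alone (TGACG, which the full element contains), the AP-1 site (TGANTCA), the kappa-B site, the interferon-stimulated response element, the STAT site (TTCNNNGAA) and the PU.1 site (GAGGAAGT). None of these letters occurred in the Pde7b window, which says nothing about the factors or about the gene's other start sites. The Slfn1 window held TGACG and a kappa-B match, and the Ifi205 window held an interferon-stimulated response element match. The windows of Glipr2, Rgs16 and Hdc held none of the 7 motifs. The shares below are for each motif alone, and the share of windows with any of the 7 was not counted. Of 32851 windows of the same length, 1.55% held the full cyclic AMP response element, 17.8% held TGACG, 6.75% the AP-1 site, 3.90% the kappa-B site, 2.98% the interferon-stimulated response element, 7.02% the STAT site and 2.44% the PU.1 site. Windows were listed for 7 of the 9 phosphodiesterase genes, 18 in all. The full cyclic AMP response element and the AP-1 and PU.1 sites occurred in 0 of the 18, TGACG in 3 (1 each of Pde4a, Pde4b and Pde8a), the STAT site in 2, and the kappa-B site and the interferon-stimulated response element in 1 each. The windows of 1 gene can overlap, as Pde2a's do.

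Over the whole series, array medians lay between 5.31 and 5.36 (log2), and arrays correlated across genes at r = 0.997 to 0.998 within groups and at r = 0.997 between groups. The median SE of a log2 difference was 0.073, and 131 genes passed, 61 higher and 70 lower. The 10 macrophage markers had mean log2 levels over all arrays from 5.16 to 12.88. None of them passed, against 0.591% of all genes, and 1 had an unadjusted p under 0.05 (limma), against 13.2%. It was Adgre1, the F4/80 antigen, which differed by -0.29 (log2; adjusted p of 0.114, limma), and Itgam differed by 0.09 with an adjusted p of 0.479 (limma). Adgre1 passed without the genes dimmer than the median and with the trended and robust prior variance, with adjusted p of 0.0254 and 0.00264 (limma). Without detection calls no marker could be called absent. The groups did not overlap for 5 of the 10 macrophage markers, against 20.3% of all genes. Adgre1, Cd68 and Cd14 were lower and Itgam and Ptprc higher, with Cd68, Cd14 and Ptprc named after their values were seen. Summed over the 10, log2 levels ran from 103.8 to 104.6 in the IL-33 arrays and from 104.4 to 104.5 in the PBS arrays. Shifts in opposite directions cancel in such a sum. None of 6 fibroblast, 5 lymphocyte and 6 mast cell markers passed or had an unadjusted p under 0.05 (limma), beside the same shares of all genes. For each of these markers the groups overlapped. Summed log2 levels of these lists, in the same order, ran from 29.6 to 29.8, 21.1 to 21.3 and 22.6 to 22.9 in the IL-33 arrays, and from 29.7 to 30.1, 21.0 to 21.8 and 22.7 to 23.3 in the PBS arrays. Among them Col3a1 differed by -0.16, Pdgfra by 0.03, Cd8a by -0.12, Cd3g by -0.05, Mcpt4 by -0.13 and Kit by -0.06 (log2), with adjusted p from 0.522 to 0.912 (limma). The part of any of these markers in the Pde7b difference was not tested.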

How the data were processed

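Biotin-labelled cDNA made from total RNA was read on 6 arrays, per the labels' protocols. The values the authors deposited are on a log2 scale, with 1 for each probe set on each array. They come from RMA, which corrects background, normalizes by quantiles and summarises probes by median polish, per the submitters' processing notes; no source used here gives its settings. RMA gives all arrays like distributions and compresses differences near either end of the scale. No detection calls came with the table, and the number of arrays limits the precision.

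Of 41345 probe sets, 23521 carried exactly 1 symbol in the platform annotation, 1814 carried several and the rest were unnamed here. Of the 23521, 23328 matched a RefSeq gene table by Entrez ID and 0 symbols changed. Where a gene had several probe sets, the one of highest mean stood for it. Values were fitted with limma 3.58.1 in R 4.3.3 (lmFit, eBayes, no covariate, no filter), with Benjamini-Hochberg adjustment over 22180 genes and a threshold of 0.05. Genes named are the 9 members, up to 4 called genes per list (or the 2 with the smallest p), and the 5 nearest profiles; genes outside this rule are said to be named after their values were seen. The members, lists and tests were chosen with earlier results of these data known. The fit was tested on simulated data. Alternatives were 2 filters on dim genes, 2 rescalings, averaged probe sets, array weights, a replicate block, another prior variance, a fit over all probe sets, and fits without each of 6 arrays. The deviations of arrays with the same replicate number correlated at 0.040, 0.057 and 0.019, so the numbers were not taken as pairs. Figures were drawn with matplotlib 3.10.9.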

Additional observations from a re-analysis of the deposited data

How the results depend on the processing

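The Pde7b difference stayed between 0.74 and 0.77 (log2) over all 15 alternatives, with adjusted p from 5.54e-05 to 0.0426 (limma), and 0.74 to 0.77 without 1 array. With the replicate block it was 0.76 with an adjusted p of 0.0426 (limma). That block moved the count of changed genes to 21 from 131 (23.8% higher, against 46.6%) and the count of called pathway genes to 0 from 1. The count of changed genes was 760 without genes dimmer than the median, 247 without the lowest 20%, 1000 with the trended and robust prior variance, 17 over all probe sets (23.5% higher), and 15 to 83 without 1 array (26.3% to 41.7% higher). Called phosphodiesterases numbered 2, with Pde2a added, without genes dimmer than the median and with the trended and robust variance, and 1 in the other alternatives. Called pathway genes numbered 7, 2, 8 and 0 in the first 4 of those settings in the order given, and 0 to 1 without 1 array, with 1 only without IL-33 replicate 1. The excess of the Pde7b over the Pde7a difference was 0.77 when probe sets were averaged, and 0.60 to 0.73 without 1 array. Averaging probe sets turned the Pde7a difference to -0.012. Without 1 array Pdgfra ranged from -0.041 to 0.108 and Cd3g from -0.124 to 0.036, both crossing 0. Among the phosphodiesterases that did not pass, Pde7a ranged from 0.04 to 0.14, Pde3b from -0.17 to -0.01, Pde4b from -0.10 to -0.02 and Pde8a from -0.06 to -0.02 without 1 array. Some of these settings also change the number of genes or arrays fitted, and the causes of the moved counts were not tested. Pde3b was left out by both filters on dim genes, and Pde4b and Pde4d by the stricter one, so they have no value there.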
